A study of Mus musculus with 4 samples.

Results

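Sox7, Sox17, Sox18, Erg, Fli1, Ets1, Ets2 and Elk3 were followed in 4 single-cell RNA libraries of the mouse heart, from midgestation to the adult. These 8 genes were chosen by name, out of 27998 genes counted in each library, and all 8 were detected in every library. Each library held CD31+/CD45- cells, the endothelial fraction of a flow cytometry sort that leaves out blood cells bearing CD45, from C57Bl6J mice without transgene or treatment, whose sex the sources used here do not give. The E12 library came from 37 animals, E15 from 48, postnatal day 2 (P2) from 21 and the adult library, at 8 weeks, from 6, each pooled before loading. Digestion of the hearts differed with stage, and sorted cells of every stage were frozen and thawed, and then cleared of dead cells with a kit at E12 and E15 but sorted again at P2 and in the adult. With 1 library a stage there are no replicates, no p-value can be given, and stage, library and handling cannot be told apart.

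SoxF and ETS proteins are transcription factors that act together on many enhancers of endothelial genes. The SoxF proteins Sox7, Sox17 and Sox18 bind DNA through an HMG box and have partly shared roles in arterial and lymphatic development, Sox17 being known mainly from arteries and Sox18 from the onset of lymphatic fate. ETS proteins recognise a GGAA core through the ETS domain. Erg and Fli1 are closely related and maintain endothelial identity, Ets1 is known from angiogenesis, Ets2 is its near relative and acts in many tissues, and Elk3 is a partner of serum response factor that can repress its targets.

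Levels are given as CPM, the unique molecular identifiers (UMIs, 1 per captured transcript) of a gene scaled to 1000000 UMIs of a class of cells, with exact 95% Poisson intervals in parentheses. Ratios of CPM carry exact conditional binomial 95% intervals. All intervals cover counting error only, not the spread between animals. A ratio was called when it passed 1.5-fold in either direction and both classes together held at least 30 UMIs of the gene, a rule of size and not a test. Reads were taken from the 3′ end of transcripts, so the values carry no length term, but capture differs between genes and levels of different genes are set side by side only as shares of the SoxF UMIs.

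Cells were put into classes by UMIs of marker genes that include no member. After quality filters 5257 cells were left at E12, 5380 at E15, 5510 at P2 and 3994 from adults, with a median depth of 973 UMIs at E15, the lowest, and 4420.5 at P2, the highest. Endocardial cells, which line the heart chambers, had more UMIs of Npr3 and Tmem108 than of Fabp4, Cldn5 and Aplnr, and numbered 1552, 1872, 1053 and 65 in the order of the stages. Coronary cells had at least 2 UMIs of Fabp4, Cldn5 and Aplnr and more of these than of the endocardial markers, and numbered 102, 1092, 4262 and 3851. The small E12 coronary and adult endocardial classes limit every ratio that uses them. The 4 libraries shared 25 to 60 cell barcodes a pair, where 33.0 to 48.4 would be shared if drawn at random from the barcodes of the kit.

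The gates went against their names in places. At E12 35.6% and at E15 26.9% of endocardial cells had no UMI of the endothelial genes Pecam1, Cdh5 and Egfl7. The artery gate, at least 3 UMIs of Cxcl12, Glul, Alpl and Nebl, held mostly cells without these endothelial UMIs at E12 (80.1%) and E15 (65.5%), and its summed mesenchyme markers stood at 2211 CPM at E12, so those cells are not called arterial here. At P2 and in the adult 95.5% and 99.4% of artery-gated cells also passed the coronary gate. Artery cells are therefore those that passed both gates, 618 at P2 and 1738 in the adult, with 14 at E15 and 0 at E12, and they are set against coronary cells outside the artery gate. They took up 11.2% of the P2 cells and 43.5% of the adult cells. Gja4 and Hey1, arterial genes outside the gate, had artery ratios of 6.51 and 4.96 at P2 but 2.40 and 3.84 in the adult. Whether the adult class holds cells that are not arterial was not tested. Non-endothelial cells, without a UMI of Pecam1, Cdh5 and Egfl7, took up 53.4% of the E12 and 32.0% of the E15 cells but 0.236% at P2 and 2.93% of adult cells, and 84.6% and 75.2% of the P2 and adult ones passed the coronary gate.

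**Figure D1:**
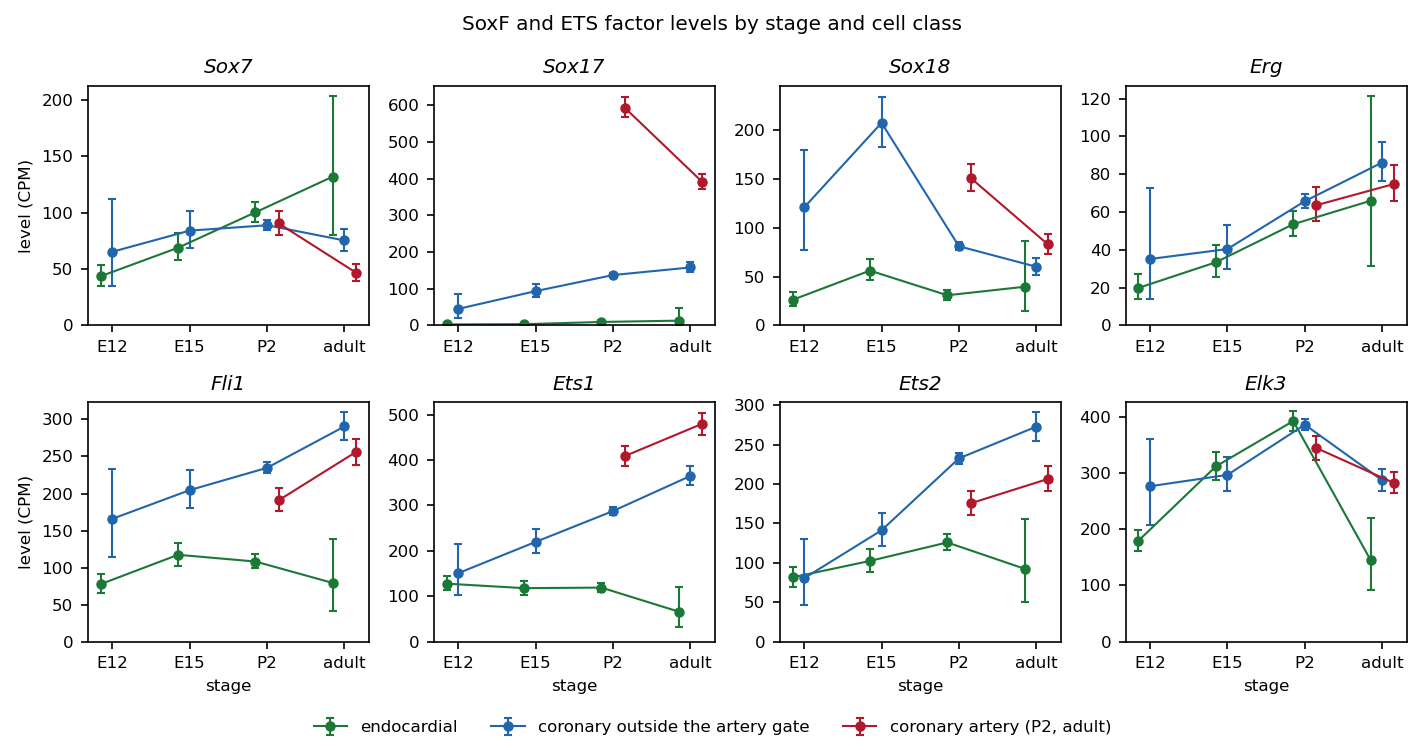
Level of each of the 8 factors (CPM, vertical axis, a scale of its own for each gene) by stage in endocardial cells (green), coronary cells outside the artery gate (blue) and coronary artery cells (red, P2 and adult only); bars are exact 95% Poisson intervals. Sox17 stood at 593 CPM in P2 artery cells and at no more than 13.2 CPM in endocardial cells of any stage.

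Sox17 separated the cell classes most widely of the 3 SoxF genes. In coronary cells it stood at 45.2 CPM at E12 and 97.1 at E15, followed by 206 at P2 and 277 in adult cells. In endocardial cells it stood at 2.91 CPM at E12 and 3.60 at E15, followed by 9.63 at P2 and 13.2 in adult cells, from 6, 7, 48 and 2 UMIs. The intervals of the levels did not overlap at any stage, and the ratio of coronary to endocardial cells was 27.0 (12.7 to 68.5) at E15, followed by 21.4 (16.1 to 29.1) at P2 and 21.0 (5.80 to 173) in adult cells. At E12 the ratio was 15.5 (4.94 to 53.0), but the 15 UMIs of both classes were too few for a call. E12 barcodes under 100 UMIs, taken as free RNA without a cell, held 38.5 CPM (25.6 to 55.6) of Sox17. That interval holds the E12 coronary level, so the E12 ratio is not read further. The adult value rests on 2 endocardial UMIs and was 4.29 when each class was kept free of the markers of the other.

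Within coronary cells Sox17 was highest in arteries. At P2 artery cells held 593 CPM (566 to 621) and other coronary cells 137 CPM (132 to 143). In the adult the levels were 392 CPM (370.4 to 414) and 158 CPM (144 to 173). Artery cells were thus 4.32 (4.06 to 4.59) times higher at P2 and 2.48 (2.23 to 2.75) times in the adult. The artery level was lower and the level of the other coronary cells higher in the adult than at P2. The artery class took up a larger share of the adult cells, and the part of this in the levels was not tested. With each cell thinned to 500 UMIs, 25.7% of P2 artery cells, 7.19% of other coronary cells and 0.380% of endocardial cells had a Sox17 UMI, and without thinning 76.4%, 33.9% and 3.89% at median depths of 4641.5, 4379.5 and 4534 UMIs. When artery cells were gated instead by Gja4, Gja5, Hey1 and Sema3g, the P2 ratio was 3.09.

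Sox18 was also higher in coronary than in endocardial cells at E12, E15 and P2, and its highest value was at E15 in both classes. The step from E12 to E15 lost its call in thinned cells, at 1.39 in coronary and 1.41 in endocardial cells. The adult endocardial level rests on too few UMIs to set it apart from that of E15. Coronary cells held 121 CPM at E12 and 207 at E15, followed by 91.5 at P2 and 71.6 in adult cells. Endocardial cells held 26.2 CPM at E12 and 56.1 at E15, followed by 30.9 at P2 and 39.6 in adult cells. The ratio of the classes was 4.60 (2.72 to 7.57) at E12 and 3.70 (2.95 to 4.67) at E15, followed by 2.96 (2.51 to 3.51) at P2 and 1.81 (0.825 to 4.96) in adult cells, where the endocardial level came from 6 UMIs and the intervals of the levels overlapped. From E15 to P2 Sox18 was lower by a ratio of 0.441 (0.387 to 0.503) in coronary and 0.551 (0.428 to 0.711) in endocardial cells. Artery cells stood above other coronary cells at P2, with 151 CPM (137 to 165) against 80.9 CPM (76.8 to 85.3), a ratio of 1.86. In the adult the ratio of 1.38 (1.14 to 1.67) did not reach the call.

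Sox7 did not share this order. Endocardial cells held 43.7 CPM at E12 and 68.9 at E15, followed by 100.3 at P2 and 132 in adult cells. Coronary cells held 65.3 CPM at E12 and 83.8 at E15, followed by 89.1 at P2 and 60.8 in adult cells. The intervals of the levels overlapped at E12, E15 and P2, the P2 ratio being 0.888 (0.804 to 0.982), and in the adult the coronary level was the lower, at a ratio of 0.461 (0.294 to 0.763). That adult ratio was the only coronary value of a member called lower, it rests on 20 endocardial UMIs, and with each class kept free of the markers of the other it was 0.912, no longer called. Adult artery cells held 46.8 CPM (39.7 to 54.9) and other coronary cells 75.3 CPM (66.0 to 85.6), a ratio of 0.621, while at P2 the ratio was 1.02 (0.893 to 1.16).

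As a share of the UMIs of all 3 SoxF genes, the make-up of the group differed between the classes. In endocardial cells Sox7 took 60.0% (51.7 to 67.9) of SoxF UMIs at E12 and 53.6% (47.2 to 59.9) at E15, followed by 71.2% (67.7 to 74.6) at P2 and 71.4% (51.3 to 86.8) in adult cells, with Sox17 at no more than 7.14%. In coronary cells outside the artery gate Sox18 led before birth, with 52.2% (36.9 to 67.1) at E12 and 53.8% (49.3 to 58.3) at E15. After birth Sox17 led, with 44.7% (43.4 to 46.1) at P2 and 53.9% (50.6 to 57.1) in adult cells. In artery cells Sox17 took 71.1% (69.3 to 72.8) and 75.1% (73.0 to 77.2) at these stages. These parentheses give exact binomial intervals. The summed SoxF level of endocardial cells was 72.8, 129, 141 and 185 CPM in the order of the stages, and that of other coronary cells 231, 385, 307 and 293 CPM, so the make-up shifted there while the sum after birth stayed below that of E15.

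**Figure D2:**
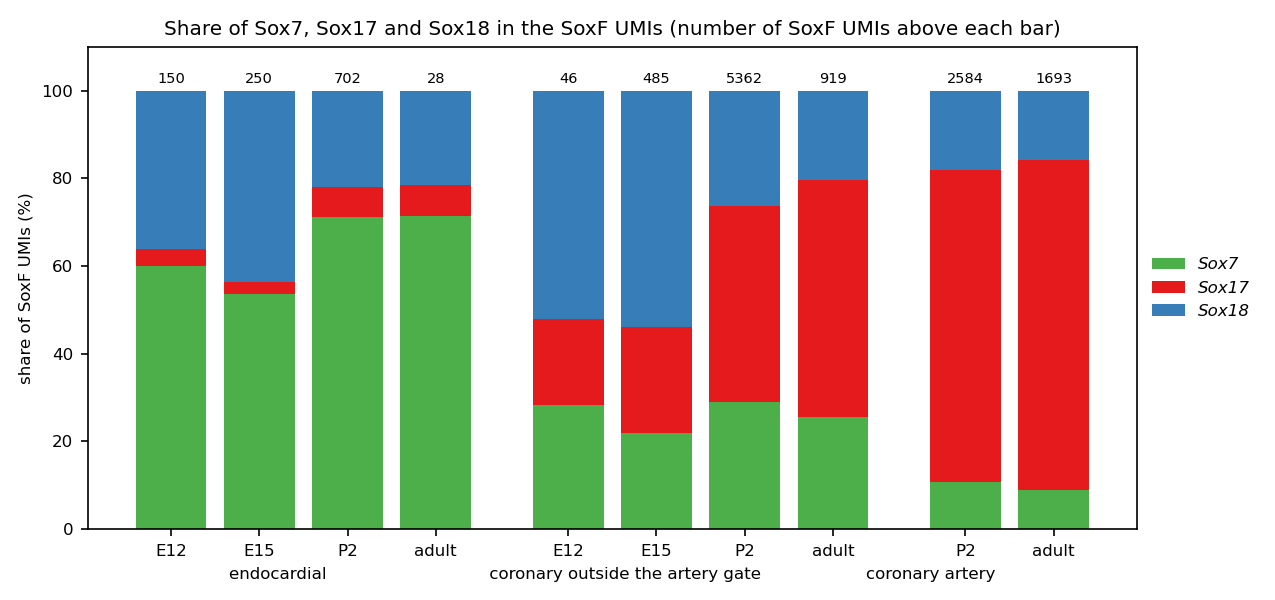
Share of Sox7 (green), Sox17 (red) and Sox18 (blue) in the SoxF UMIs (%, vertical axis from 0) of endocardial cells, coronary cells outside the artery gate and coronary artery cells at each stage; the number above a bar is its count of SoxF UMIs. The Sox7 part is largest in the endocardial bars, and the Sox17 part in the artery bars, at 71.1% and 75.1%.

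Detection of several SoxF genes in the same cell was rare at a common depth. Of P2 artery cells thinned to 500 UMIs 37.2% (33.4 to 41.2) had a UMI of at least 1 SoxF gene, against 14.9% of other coronary and 6.27% of endocardial cells. At least 2 SoxF genes were found in 4.05% (2.63 to 5.91) of P2 artery cells, where the product of the single shares gives 3.96%. In adult artery cells the values were 1.32% and 1.18%. The joint shares of artery cells thus lay within counting error of the product.

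In the GRCm38 annotation of GENCODE M21 the 8 genes lie at chr14:63943673-63950732 (Sox7, plus strand), chr1:4490931-4497354 (Sox17, minus), chr2:181669836-181671640 (Sox18, minus), chr16:95359169-95586593 (Erg, minus), chr16:95702075-95721051 (Ets2, plus), chr9:32422204-32542861 (Fli1, minus), chr9:32636221-32757820 (Ets1, plus) and chr10:93247414-93311135 (Elk3, minus). The ETS genes form neighbour pairs on opposite strands, Erg and Ets2 being 115.5 kb apart with 0 genes between them and Fli1 and Ets1 93.4 kb apart with 0 coding genes between them. Fli1 overlaps 5 predicted gene models on its own strand, and no other member overlaps a gene on its strand. Whether these models were among the counted genes, and so could take reads from Fli1, was not checked.

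RefSeq starts on GRCm38.p6 were at hand for Erg, Ets2 and Elk3, 3 of the 8 members. The 250 bases before the start are printed for these ETS genes, 5′ to 3′ on the strand of the gene, because they show how far each gene carries the cores that these factors themselves bind, the ETS core GGAA and the SoxF core AACAAT, searched on both strands and shown in capitals. The cores can share bases, but share none in these windows. For Erg, which has 3 listed starts, the one nearest the gene's end is shown (chr16:95459349-95459598, minus strand), the only one of the 5 windows with a SoxF core. The other Erg windows hold 0 ETS cores (chr16:95586594-95586843) and 4 (chr16:95530366-95530615). Ets2 is shown at chr16:95702157-95702406 (plus strand) and Elk3 at chr10:93311160-93311409 (minus strand).
Erg: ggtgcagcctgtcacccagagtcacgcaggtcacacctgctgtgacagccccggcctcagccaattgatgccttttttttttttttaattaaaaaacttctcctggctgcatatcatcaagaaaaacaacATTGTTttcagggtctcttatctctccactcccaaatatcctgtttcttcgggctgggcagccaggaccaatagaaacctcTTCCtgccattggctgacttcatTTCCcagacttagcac
Ets2: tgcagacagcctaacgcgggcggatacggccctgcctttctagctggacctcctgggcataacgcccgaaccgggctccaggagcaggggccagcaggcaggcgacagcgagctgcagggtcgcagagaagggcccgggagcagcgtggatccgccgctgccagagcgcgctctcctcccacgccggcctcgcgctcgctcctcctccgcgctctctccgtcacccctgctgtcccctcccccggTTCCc
Elk3: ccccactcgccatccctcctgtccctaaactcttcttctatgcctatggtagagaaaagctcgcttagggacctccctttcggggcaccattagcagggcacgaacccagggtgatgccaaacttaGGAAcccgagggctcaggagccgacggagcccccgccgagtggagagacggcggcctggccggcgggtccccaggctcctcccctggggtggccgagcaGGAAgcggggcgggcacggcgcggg
The Erg window holds 2 ETS cores and 1 SoxF core, the Ets2 window 1 ETS core and the Elk3 window 2. Of 32851 promoter windows of this length 93.4% hold a GGAA and 9.42% an AACAAT. A match is a run of letters and not a binding site, and 3′ counts do not show which start was used.

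Among the ETS factors Ets1 showed the widest gap between coronary and endocardial cells after birth. Coronary cells held 151 CPM at E12 and 218 at E15, followed by 306 at P2 and 423 in adult cells, higher at each stage than at the one before. The step from E12 to E15, at 1.45 (0.992 to 2.19), was not clear of counting error. That from E15 to P2, at 1.40 (1.24 to 1.58), stood beside a median of 1.29 over all genes. Endocardial cells held 128 CPM at E12 and 118 at E15, followed by 119 at P2 and 66.0 in adult cells. The levels overlapped at E12, with a ratio of 1.18 (0.781 to 1.73), and were apart from E15 on, at 1.85 (1.55 to 2.22), 2.57 (2.36 to 2.80) and, from 10 endocardial UMIs, 6.42 (3.48 to 13.4). With each class kept free of the markers of the other the adult ratio was 3.29. Artery cells held 409 CPM (386 to 432) at P2 and 479.7 CPM (456 to 504) in the adult, above other coronary cells in both, by ratios of 1.42 (1.33 to 1.51) and 1.31 (1.22 to 1.42) that stayed under 1.5-fold.

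Fli1 was higher in coronary cells at all 4 stages. The coronary levels were 166 CPM at E12 and 203 at E15, followed by 228 at P2 and 273 in adult cells. The endocardial levels were 77.6 CPM at E12 and 117 at E15, followed by 108 at P2 and 79.1 in adult cells. Their intervals did not overlap at any stage, and the ratio was 2.14 (1.42 to 3.12), 1.73 (1.44 to 2.08), 2.11 (1.93 to 2.31) and 3.45 (1.97 to 6.69). The adult ratio was 1.36 in thinned cells and 1.70 with strict classes. E12 barcodes under 100 UMIs held 68.7 CPM (51.0 to 90.5) of Fli1, an interval that holds the E12 endocardial level and lies below the coronary one. The same order held for Sox18, Ets1 and Elk3 at E12. The part of free RNA in the E12 ratios of these genes was not tested. In arteries the order was the other way from that of Sox17, with 191 CPM (176 to 207) at P2 and 256 CPM (239 to 274) in adult artery cells against 235 CPM (228 to 242) and 291 CPM (272 to 310.0) in other coronary cells, at ratios of 0.813 and 0.882 that were not called.

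Erg, the near relative of Fli1, was called higher in coronary than in endocardial cells at E12 and at no later stage. In coronary cells it stood at 35.2 CPM at E12 and 40.7 at E15, followed by 65.4 at P2 and 80.4 in adult cells. In endocardial cells it stood at 19.9 CPM at E12 and 33.4 at E15, followed by 53.6 at P2 and 66.0 in adult cells. The E12 ratio of 1.77 (0.669 to 3.98) came from 7 coronary UMIs, and was 3.28 as a mean over cells and 15.6 in thinned cells, where 4 and 8 UMIs were too few for a call. E12 barcodes under 100 UMIs, taken as free RNA without a cell, held 46.7 CPM (32.3 to 65.2) of Erg. This lies above the levels of both classes, with the coronary level inside the interval, so the E12 ratio is not read further. The ratio was 1.22 at E15, followed by 1.22 (1.07 to 1.40) at P2 and 1.22 in adult cells. The Erg level was higher at each later stage in both classes, but not every step was clear of counting error. The coronary step from E12 to E15 was 1.16 (0.524 to 3.02), and the adult endocardial level came from 10 UMIs. The ratio of P2 to E15 was 1.61 (1.22 to 2.16) in coronary and 1.60 (1.22 to 2.13) in endocardial cells. With median-of-ratios size factors these were 1.26 and 1.34, no longer called. Artery and other coronary cells overlapped at P2, with a ratio of 0.968 (0.828 to 1.13), and in the adult, with 0.868 (0.727 to 1.04).

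Ets2 stood at like levels in the classes at E12 and apart at the later stages. Coronary levels were 80.4 CPM at E12 and 140.1 at E15, followed by 224 at P2 and 239 in adult cells. Endocardial levels were 81.5 CPM at E12 and 102 at E15, followed by 126 at P2 and 92.3 in adult cells. The ratio was 0.986 (0.551 to 1.65) at E12 and 1.37 (1.11 to 1.68) at E15, followed by 1.78 (1.64 to 1.94) at P2 and 2.59 (1.54 to 4.74) in adult cells, the last from 14 endocardial UMIs. E12 barcodes under 100 UMIs held 85.1 CPM (65.3 to 109) of Ets2. That interval holds the E12 levels of both classes, so the E12 ratio is not read further. In artery cells Ets2 was below other coronary cells, at 175 against 232 CPM at P2 and 206 against 273 CPM in the adult, by ratios of 0.755 (0.689 to 0.825) and 0.757 (0.683 to 0.838) that were not called.

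Elk3 had like levels in coronary and endocardial cells at E15 and P2. Coronary cells held 276 CPM at E12 and 295 at E15, followed by 379.6 at P2 and 285 in adult cells. Endocardial cells held 179.5 CPM at E12 and 312 at E15, followed by 392 at P2 and 145 in adult cells. The ratio was 0.947 (0.831 to 1.08) at E15 and 0.968 (0.921 to 1.02) at P2, while at E12 and in the adult it was called at 1.54 (1.14 to 2.05) and 1.96 (1.29 to 3.14). The E12 call was lost in thinned cells, at 1.10. Endocardial Elk3 was higher at E15 than at E12 by 1.74 (1.52 to 1.98) and lower in the adult than at P2 by 0.370 (0.231 to 0.562), the adult level being from 22 UMIs. Artery cells held 0.892 times the level of other coronary cells at P2 and 0.984 times in the adult.

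Counted over the 8 factors and 4 stages, coronary against endocardial ratios were called higher in 19 and lower in 1 of 31 pairs with enough UMIs, the pair left out being Sox17 at E12. Over all genes 19.4% of gene and stage pairs were called higher and 24.4% lower. The median ratio was 1.78 for the factors and 0.945 for all genes. The counts here include 8 adult pairs with 2 to 22 endocardial UMIs, which passed the UMI limit only through the coronary cells. These adult pairs gave 6 of the higher calls and the lower one. Before the adult, 4 of 7 pairs were higher at E12, 4 of 8 at E15 and 5 of 8 at P2, with 0 lower. Over all genes 984 of 6909, 992 of 7862 and 1991 of 11899 were higher at these stages, and 2111, 1947 and 2489 lower. At 2-fold 12 pairs were higher, beside 12.04% of all pairs, and among cells with an endothelial UMI 18 were higher and 1 lower at 1.5-fold, beside 19.8% and 23.7%. Mesenchyme markers, of which 3 to 5 of 5 were detected in a class, summed to 778 to 2243 CPM in endocardial and 116 to 399 CPM in coronary cells, and their part in the ratios was not tested.

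**Figure D3:**
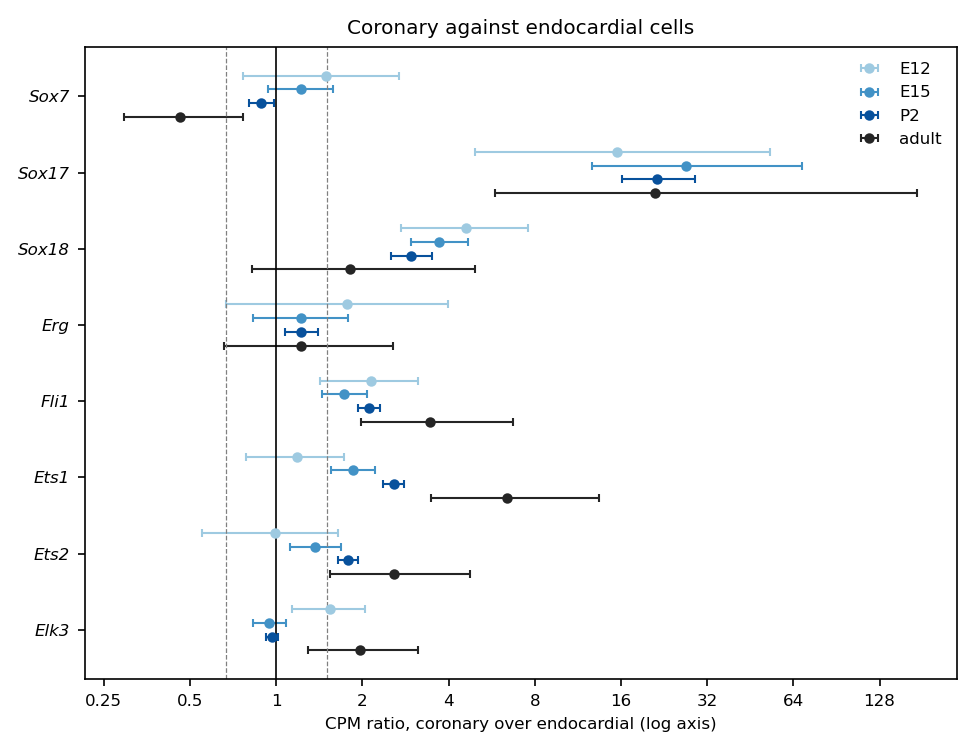
Ratio of coronary to endocardial CPM for each factor (horizontal log axis) at each stage (light to dark points, from E12 to the adult), with exact conditional binomial 95% intervals; the solid line marks equal levels and dashed lines 1.5-fold. Sox17 lies farthest to the right at every stage, between 15.5 and 27.0. Its E12 point had too few UMIs for a call and is not read, and its adult point rests on 2 endocardial UMIs. The adult Sox7 point is the only one beyond the left dashed line.

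In the artery comparison 5 pairs were higher and 5 lower of 24, beside 10.8% and 17.7% of all gene and stage pairs. Of these, 2 of the higher and 4 of the lower calls come from the 14 artery cells of E15, with 1 to 6 UMIs a gene on the artery side, and are not read further. Of the 8 factors 2 were called higher at P2, Sox17 and Sox18, and 0 lower, where 919 of 11544 genes were higher and 1740 lower. In the adult 1 was higher, Sox17, and 1 lower, Sox7, where 559 and 830 of 9587 genes were. Arteries and other coronary cells differed in depth in the adult, with medians of 1731 and 1252 UMIs, and in the summed mitosis markers at P2, with 369.8 and 682 CPM in artery and all coronary cells, and the part of either in the ratios was not tested.

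**Figure D4:**
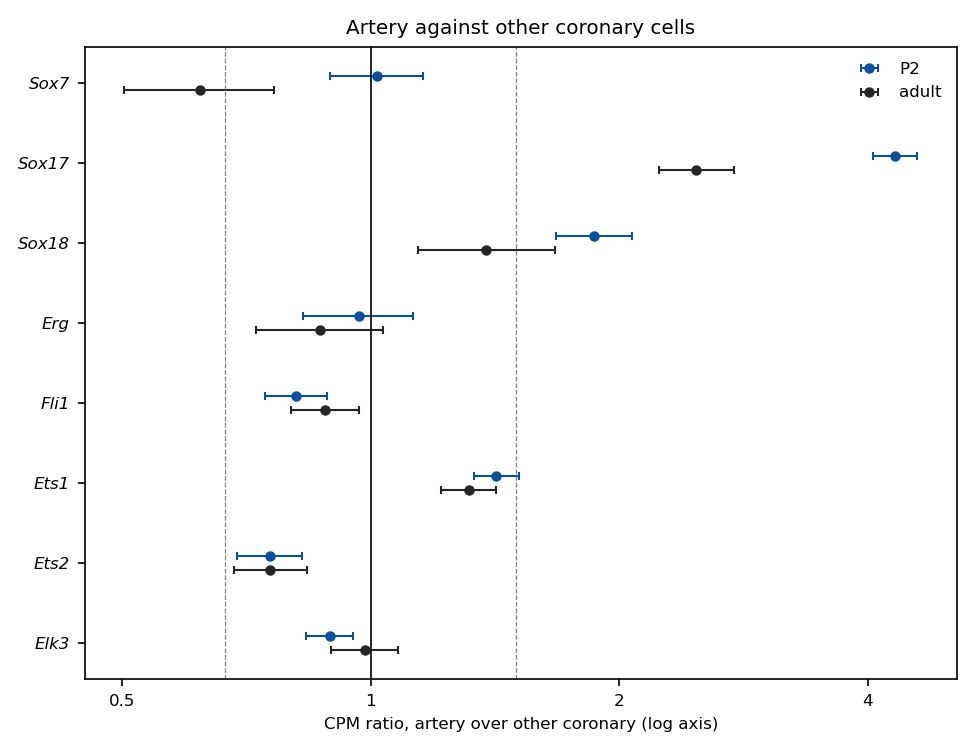
Ratio of CPM in coronary artery cells to that in other coronary cells for each factor (horizontal log axis) at P2 (blue) and in the adult (black), with exact conditional binomial 95% intervals; dashed lines mark 1.5-fold. Sox17 stands at 4.32 and 2.48, Sox18 passes 1.5-fold at P2 only and Ets2 lies left of equal levels at both stages.

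Dividing cells had at least 2 UMIs of 6 mitosis genes. At E15 and P2 SoxF genes took a lower share of their UMIs than in the rest of the coronary class. At P2 Sox17 stood at 129 against 239 CPM in dividing and other coronary cells, a ratio of 0.539 (0.498 to 0.582), and Sox7 and Sox18 had ratios of 0.766 (0.687 to 0.853) and 0.799 (0.719 to 0.888). At E15 the ratios were 0.332 (0.165 to 0.607) for Sox7, 0.630 (0.386 to 0.991) for Sox17 and 0.719 (0.527 to 0.968) for Sox18. Among the ETS factors the P2 ratio was 0.838 (0.792 to 0.887) for Ets1 and 0.858 (0.758 to 0.969) for Erg, while Fli1, Ets2 and Elk3 had intervals that held equal levels. Dividing cells were the deeper ones, with a median of 6238 against 4104 UMIs at P2, and the part of depth was not tested. In the 960 dividing and 3302 other cells of P2 Sox7 had 448 and 1383 UMIs, Sox18 475 and 1405 and Sox17 786 and 3449. Of these only Sox17 was lower in dividing cells as UMIs per cell. The 34 dividing coronary cells of E12 and 33 of the adult gave intervals that held equal levels for every SoxF gene. In the 254 dividing endocardial cells of E12 Ets2 and Elk3 were lower than in the rest, at 0.567 (0.348 to 0.884) and 0.597 (0.438 to 0.801), and Sox17 was higher on 4 and 2 UMIs, at 7.15 (1.02 to 79.0), while the intervals of the other factors held equal levels. At E15 Sox18 was lower, at 0.373 (0.0997 to 0.983) from 4 UMIs, and in the 66 such cells of P2 all 8 intervals held equal levels.

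**Figure D5:**
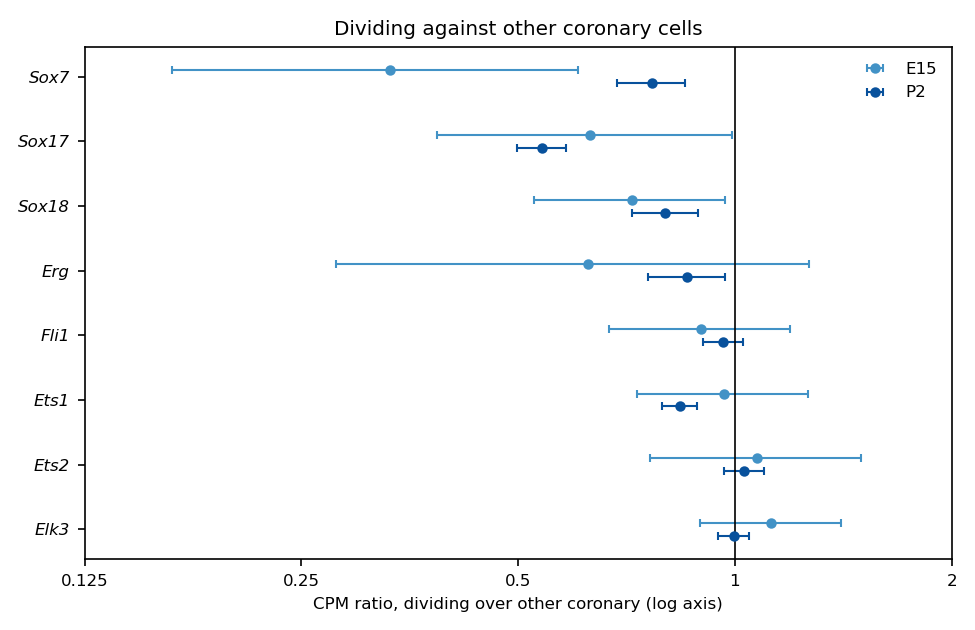
Ratio of CPM in dividing to that in other coronary cells for each factor (horizontal log axis) at E15 (light blue) and P2 (dark blue), with exact conditional binomial 95% intervals; the solid line marks equal levels. The 3 SoxF genes lie left of the line at both stages, between 0.332 and 0.799, and Ets2 and Elk3 lie on it within their intervals.

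Lymphatic cells of P2, 403 cells with an endothelial UMI and at least 2 UMIs of Prox1, Mmrn1 and Lyve1, held little Sox17. It stood at 19.8 against 177 CPM in lymphatic and other endothelial cells. Sox18, whose product is known to switch on Prox1 in the embryo, stood at 67.1 against 79.4 CPM, a ratio of 0.845 (0.709 to 1.00). Elk3 was the only factor above the other cells, with 501 against 371 CPM and a ratio of 1.35 (1.27 to 1.44), while Ets1 stood at 0.548 (0.489 to 0.612) and Ets2 at 0.669 (0.594 to 0.751). Since 232 of these cells also passed the coronary gate, the alternative without lymphatic and stressed cells bears on the coronary values. It gave 20 higher and 1 lower coronary against endocardial calls, against 19 and 1 as reported. Over all gene and stage pairs 19.7% were higher and 25.0% lower in that alternative.

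Within the sort the factors stood higher at E12 in cells with an endothelial UMI than in cells without one. The non-endothelial class was not free of the other classes. Of its cells 19.7% at E12 and 29.3% at E15 passed the endocardial gate, and 0.214% and 10.0% the coronary gate. At E12 the ratio of cells with to cells without an endothelial UMI was 5.62 (3.75 to 8.69) for Sox18, 4.45 (3.18 to 6.35) for Sox7, 4.45 (2.44 to 8.66) for Sox17 and 3.07 (2.01 to 4.79) for Erg. It was lower for Ets2 at 2.45 (1.98 to 3.04), Fli1 at 1.91 (1.58 to 2.33), Ets1 at 1.88 (1.61 to 2.21) and Elk3 at 1.81 (1.61 to 2.05). Only Sox7, at 52.8 CPM, and Elk3, at 218 CPM, had endothelial levels above the interval of E12 barcodes under 100 UMIs. Those of Sox17 and Erg lay below it, at 16.8 and 25.6 CPM, and those of Sox18, Fli1, Ets1 and Ets2 inside it. The part of free RNA in the E12 ratios was not tested. Mesenchyme and mural cells were taken from non-endothelial cells that also lacked UMIs of Kdr, Tie1, Emcn, Esam, Ramp2 and Cldn5. Their own marker list had more UMIs than any other non-endothelial list. The 660 mesenchyme cells of E12 had at least 3 UMIs of Col1a1, Col3a1, Pdgfra, Dcn and Postn. In them Sox7, Sox17, Sox18 and Erg had 1 or 2 UMIs each, while Ets1 stood at 63.1 CPM (48.1 to 81.2) and Elk3 at 97.8 CPM (78.9 to 119.8). E12 barcodes under 100 UMIs, which hold free RNA, stood higher for both, at 113 and 155 CPM, so these levels are not read as expression. In the 215 mural cells of E12 Sox17, Sox18 and Erg had 0 UMIs, which allows up to 9.79 CPM each. Elk3 stood at 94.7 CPM (63.4 to 136) there, also below the 155 CPM of free RNA, and is not read as expression.

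At E12 8 of 8 pairs were called higher in endothelial cells and at E15 7 of 8, with 0 lower at either stage. Over all genes 1103 of 10247 were higher and 1328 lower at E12, and 874 and 1005 of 9628 at E15. Erg at E15 was the exception, with 1.38 (0.981 to 1.97). With the adult stage the count was 23 of 24, beside 17.3% higher and 14.1% lower of all gene and stage pairs. With P2 as well it was 31 of 32, beside 26.7% and 16.5%. The P2 pairs, and the adult ones except Ets1, passed the limit of 30 UMIs only through the endothelial cells and are not read. Sox17 and Sox18 at E12 and Sox17 at E15 also had under 30 non-endothelial UMIs, at 14, 29 and 27. The E15 ratios of the other factors lay between 1.58 for Ets2 and 2.87 for Sox18. The adult ratios, from 2.33 for Fli1 to 7.76 for Sox17, rest on 4 to 32 non-endothelial UMIs. The 13 non-endothelial cells of P2 held 10 UMIs of Ets1 and at most 5 of every other factor. In cells thinned to 500 UMIs 12 pairs were higher, beside 10.5% of all pairs, and of the adult calls that of Sox7 alone was left. With non-endothelial cells that also lacked UMIs of Kdr, Tie1, Emcn, Esam, Ramp2 and Cldn5 the E12 ratio of Sox17 was 18.8 and that of Sox18 14.0.

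Between stages the factors followed no common course. In coronary cells 6 of 24 pairs of a factor and a step to the next stage were called higher and 1 lower, beside 27.7% and 15.7% of all genes. The higher count was near that share and the lower count below it. The calls were Sox17, Sox18 and Ets2 from E12 to E15, at 2.15 (1.09 to 4.80), 1.72 (1.13 to 2.73) and 1.74 (1.04 to 3.12), and Sox17, Erg and Ets2 higher and Sox18 lower from E15 to P2, with Sox17 at 2.12 (1.78 to 2.56) and Ets2 at 1.60 (1.38 to 1.87). In E12 coronary cells Sox17, Sox18 and Ets2 had 9, 24 and 16 UMIs. Their calls from E12 to E15 thus passed the UMI limit only through the E15 cells. The E12 coronary levels of Sox17 and Ets2 also lay inside the intervals of E12 free RNA, so these 2 steps are not read further. From E15 to P2 3 of 8 factors were higher and 1 lower, where 4483 and 1192 of 11627 genes were. From P2 to the adult no factor was called, Sox17 being at 1.34 (1.27 to 1.42), Ets1 at 1.38 (1.32 to 1.45), Sox7 at 0.683 (0.610 to 0.762) and Elk3 at 0.750 (0.712 to 0.789). The step from E15 to P2 had a median ratio of 1.29 over all genes.

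With median-of-ratios size factors, which centre that step, the calls in coronary cells were 4 higher and 1 lower, beside 21.3% and 20.0% of all genes, and Sox17 from E15 to P2 had a ratio of 1.66 and Sox18 of 0.345. Ets2 and Erg at that step were 1.25 and 1.26 and lost their calls. They also lost them with mitochondrial, ribosomal and hemoglobin genes out of the total, at 1.34 and 1.35. The Sox17 call from E12 to E15 turned to 0.677 in thinned cells, that of Sox18 was lost there at 1.39, and that of Ets2 with the default Scrublet rate at 1.42. Summed immediate-early genes, a sign of stress in dissociated cells, stood at 322, 614, 3532 and 4650.0 CPM in coronary cells in the order of the stages, and their part in the differences between stages was not tested.

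In endocardial cells 7 of 23 pairs were called higher and 3 lower, beside 21.4% and 17.1% of all genes. From E12 to E15 the higher ones were Sox18 at 2.14 (1.53 to 3.02), Elk3, Erg at 1.68 (1.12 to 2.55), Sox7 at 1.58 (1.20 to 2.08) and Fli1 at 1.51 (1.23 to 1.86). Of these Sox18 and Fli1 lost the call in thinned cells, at 1.41 and 1.41, and Sox7 with the default Scrublet rate, at 1.42. Over the same step erythroid markers, all 4 detected, went from 1499 to 70.5 CPM and endocardial cells without an endothelial UMI from 35.6% to 26.9%, and their part in these ratios was not tested. Ets1 was the lower in the adult against P2, at 0.555 (0.265 to 1.03), but turned to 1.20 with endocardial cells free of coronary markers. Sox17 was called higher from E15 to P2, at 2.67 (1.20 to 7.01), on levels of 3.60 and 9.63 CPM that stay below those of coronary cells at every stage. With median-of-ratios size factors the calls were 5 higher and 3 lower, beside 17.0% and 20.0% of all genes. Over the adult step the endocardial class held 65 cells, and a ratio of a few UMIs there leaves wide intervals.

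Related factors and known targets, from lists named for this work, did not all show the order of the 8 genes. In the coronary against endocardial comparison the other ETS factors had 4 higher and 11 lower of 37 pairs, at P2 from 6.11 (6.13 against 1.00 CPM) for Etv4 to 0.173 (0.973 against 5.62 CPM) for Fev. Other Sox factors had 2 higher and 7 lower of 15, at P2 from 1.18 (15.4 against 13.0 CPM) for Sox13 to 0.158 (1.26 against 8.02 CPM) for Sox5. Over all genes 19.4% of gene and stage pairs were called higher and 24.4% lower in this comparison. The medians of both lists, 0.986 and 0.867, lay on either side of the 0.945 of all genes, against 1.78 for the 8 factors. The counts and medians of this comparison include the adult pairs.

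Of 22 endothelial genes known to carry ETS or SoxF sites or to depend on these factors, 30 higher and 27 lower of 85 pairs were called in that comparison, with a median ratio of 1.06. At P2 the list ran from Robo4, a guidance receptor of endothelium, at 3.49 (63.6 against 18.3 CPM) to Vwf, the clotting factor carrier, at 0.349 (47.3 against 136 CPM). The list thus held genes of either class, where 19.4% of all gene and stage pairs were higher and 24.4% lower. Factors known to act with SoxF and ETS proteins had 8 higher and 22 lower of 40, from Mef2c at 1.88 (299 against 159 CPM) to Foxc1 at 0.192 (25.7 against 134 CPM) at P2, a list whose balance was the reverse of that of the 8 factors.

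In arteries of P2 the endothelial gene list had 7 higher and 2 lower of 22, from Gja4, the arterial connexin, at 6.51 (465 against 71.4 CPM) to Prox1 at 0.250 (7.43 against 29.7 CPM). Partner factors had 2 higher and 2 lower of 10, from the flow-responsive Klf2 at 1.58 (2129 against 1348 CPM) to the vein factor Nr2f2 at 0.320 (25.5 against 79.8 CPM). Other Sox factors had 2 higher and 1 lower of 4, with Sox11 highest at 2.30 (113 against 49.1 CPM) and Sox12 lowest at 0.580 (8.07 against 13.9 CPM), and other ETS factors 0 higher and 3 lower of 12, from Elf1 at 1.40 (82.4 against 59.0 CPM) to Etv1 at 0.318 (2.26 against 7.10 CPM). Over all genes 919 were higher and 1740 lower of 11544 at P2. In the adult the lists had, in the same order, 4 and 1 of 21, 1 and 4 of 10, 0 and 1 of 2 and 1 and 1 of 9. Over all genes these were 559 and 830 of 9587. The 14 artery cells of E15 are left out. The P2 median ratios were 1.30 for the endothelial genes, 1.08 for the partners, 1.16 for the Sox and 0.992 for the ETS list, beside 0.993 for the 8 factors and 0.977 for all genes. In the adult they were 1.10, 0.794, 0.725 and 0.922, beside 0.931 and 1.005.

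Against non-endothelial cells the P2 pairs are left out, as above. At E12 the endothelial gene list had 20 higher and 0 lower of 22 pairs and the partner factors 8 and 0 of 10. The other ETS factors had 3 and 3 of 15 and the other Sox factors 0 and 4 of 7. Over all genes 1103 were higher and 1328 lower of 10247. At E15 the lists had 17 and 0 of 22, 4 and 0 of 10, 0 and 3 of 13 and 1 and 2 of 6, beside 874 and 1005 of 9628. In the adult they had 20 and 1 of 22, 7 and 1 of 10, 6 and 1 of 10 and 2 and 0 of 2, beside 3151 and 1857 of 9815. The adult non-endothelial class held 117 cells, and these adult counts are not read further. The E12 median ratios were 3.26, 2.34, 1.16 and 0.585, beside 2.74 for the 8 factors and 0.999 for all genes. At E12 Robo4 led the first list at 8.38 (11.3 against 1.35 CPM) and Efnb2 ended it at 1.06 (75.4 against 71.4 CPM). Sox9, the chondrogenic and valve mesenchyme factor, ended the Sox list at 0.276 (66.2 against 239.9 CPM). At E12 and E15 the endothelial excess of the 8 factors thus did not extend to the other Sox list. From P2 to the adult in coronary cells the other Sox factors had 1 higher and 3 lower of 5, from Sox13 at 1.81 (27.9 against 15.4 CPM) to Sox11 at 0.0214 (1.25 against 58.7 CPM), and the endothelial genes 11 higher and 2 lower of 22, from Flt1 at 2.97 (683 against 230.2 CPM) to Prox1 at 0.0774 (2.04 against 26.3 CPM), where 19.5% of all genes were higher and 22.1% lower at that step.

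The genes with the most similar pattern were found by Pearson's r of log2(CPM + 10) over 15 points, endocardial, other coronary, artery and non-endothelial cells of each stage without the empty E12 artery class, among 5882 genes with a mean of at least 20 CPM. The P2 non-endothelial point rests on 13 cells and the E15 artery point on 14. At the latter point Fli1, Ets2 and Sox7 had 1 UMI each, which equals 61.3 CPM. How far the values of r lean on that point was not tested. Points of a stage share a library and its depth, and no p is given. For Sox17 these were Nxpe4 (r = 0.95) and Gja5 (0.94), Gja5 being a connexin of arteries. For Sox7 they were Hhex (r = 0.94) and Pxn (0.94), and for Sox18 Efna1 (r = 0.90) and Gnai2 (0.89), Efna1 coding for an ephrin ligand. Erg was nearest to Flt1 (r = 0.96) and Npr1 (0.95), Flt1 being a VEGF receptor, and Fli1 to Arhgap27 (r = 0.95) and Robo4 (0.94). For Ets1 the nearest were Abcg2 (r = 0.94) and Tmem88 (0.93), for Ets2 Fli1 (r = 0.92) and Ccdc85b (0.92) and for Elk3 Prcp (r = 0.88) and Yes1 (0.87). Ets2 and Fli1 were thus the closest pair of members, at 0.92, and Sox7 and Ets1 the farthest apart, at 0.19. The neighbour pairs of the genome lay between, with r of 0.79 for Erg and Ets2 and 0.78 for Fli1 and Ets1.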

How the data were processed

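Single-cell 3′ RNA libraries of sorted CD31+/CD45- heart cells were made by the authors from 4 stages with the 10x kit and counted with Cell Ranger 2.2 on mm10, and the deposited values are whole-number UMI counts per gene and barcode, not normalized. The E12 file held all barcodes of the kit, and those with 452 or more UMIs were taken as cells. Cells were kept within the limits of UMIs, genes and mitochondrial share that the study's methods give for each stage (for E12 4000, 1500 and 10%, for E15 3000, 1300 and 10%, for P2 12000, 4000 and 20%, for the adult 5000, 2000 and 20%) and below a Scrublet doublet score of 0.15, run with 0.8% expected doublets per 1000 cells, which removed 2.43 to 9.45% of barcodes. UMIs were summed over the cells of a class in each library, whose kept UMIs totalled 5742748 to 26326536, and divided by the sum over all genes. Intervals were exact at 95%. Since each group held 1 library, no replicated test was run, and a 1.5-fold rule of size with 30 UMIs was used in its place. On simulated counts it marked unchanged genes most often at E12 and in the adult, the stages with a small class. The members were given by name, with related factors, targets and partners as lists, and within a list the genes with the highest and lowest P2 ratio (E12 against non-endothelial cells, and the adult step between stages) were named. For each member the 2 genes with the highest r of the pattern were named. The members and lists were chosen with earlier results of these data known. Alternatives covered cell filters, depth, gates, scaling, fold and count limits. Python 3.11.15, NumPy 2.4.6, SciPy 1.17.1, pandas 2.3.3, Scanpy 1.11.5 and Matplotlib 3.10.9 were used.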

Additional observations from a re-analysis of the deposited data

Results flagged for a closer look

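The E12 file holds every barcode of the kit, and 156803 barcodes under 100 UMIs, taken as droplets with free RNA and no cell, gave a signal for all 8 factors above the limit that a count of 0 allows, 4.12 CPM. Sox17, Erg and Ets2 had intervals above the level of the cells kept at E12, with 38.5 CPM (25.6 to 55.6, from 28 UMIs) against 9.88 for Sox17, 46.7 (32.3 to 65.2) against 16.5 for Erg and 85.1 (65.3 to 109) against 58.0 for Ets2. For the others the interval held the level of the cells, the values being 35.7 against 24.8 CPM for Sox18, 68.7 against 64.7 for Fli1, 113 against 97.6 for Ets1, 26.1 against 31.1 for Sox7 and 155 against 166 for Elk3. The intervals are exact Poisson ones. The other 3 libraries were given with called cells only, so the same level was not measured there.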

How the results depend on the processing

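Each of 17 alternative settings, 2 of them chosen after seeing the data, was applied to the comparisons it bears on, and limits on fold or UMIs to counts of calls only. Of 140 recomputed counts 115 stayed within 1.5 times the reported one, and of 682 recomputed ratios 601 stayed within their counting interval, 71 moved past it and 10 changed direction, while 5 had no value because the second class held 0 UMIs. The coronary against endocardial count went to 12 higher at 2-fold, and its lower count to 3 in cells thinned to 500 UMIs, 0 with strict classes and 0 where at least 10 UMIs were expected in the smaller class, the latter limit being one of those added. The artery count went to 3 higher at 2-fold, with the artery gate alone and with 10 expected UMIs, and to 3 lower with the default Scrublet rate, 11 in thinned cells, 2 at 2-fold, 11 with the artery gate alone and 1 with 10 expected UMIs. Against non-endothelial cells 12 pairs were higher in thinned cells (10.5%) and 1 lower with strict non-endothelial cells (14.5%). In coronary stage steps 2 were higher at 2-fold (14.8%), and 3 lower in thinned cells (14.9%). In these steps 2 were lower with mitochondrial, ribosomal and hemoglobin genes out of the total (19.5%) and as a mean over cells (16.5%). The lower count was also 2 without dividing cells (15.6%), without stressed or lymphatic cells (15.3%) and with strict classes (15.3%). In endocardial steps 4 were higher in thinned cells (20.8%) and 2 at 2-fold (9.38%). There 5 were lower with the default Scrublet rate (18.1%) and 1 at 2-fold (9.60%). Direction changed for artery ratios of E15, where 14 cells were at hand: Erg had 0.766 in all called barcodes, 0 in thinned cells and 0.324 with the artery gate alone, Sox17 had 0 in thinned cells and 0.981 with the artery gate alone, and Elk3 had 1.25 with arteries gated by Gja4, Gja5, Hey1 and Sema3g. In thinned cells the endothelial ratio turned to 0.969 for Ets2 at E15 and 0.970 for Sox18 in the adult, and the coronary step of Sox17 from E12 to E15 to 0.677. The endocardial step of Ets1 from P2 to the adult turned to 1.20 with strict classes. The cause was not tested for any of these.

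The other alternative chosen after seeing the data required an endothelial UMI in every class. No paired analysis was possible because each stage had 1 library and no result comes from a replicated test. A count of 0 allows up to 184 CPM in the 14 artery cells of E15 and 44.8 CPM in the 13 non-endothelial cells of P2, and 15.1 and 19.8 CPM in the E12 coronary and adult endocardial classes.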

Other observations

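Coronary cells with a UMI of Cxcr4, a chemokine receptor of tip and arterial endothelium, held more SoxF RNA than the other coronary cells at E15 and P2. This split was chosen after its values were seen. In the 62 such cells of E15 the ratio was 3.14 (1.78 to 5.26) for Sox7, 1.98 (1.05 to 3.46) for Sox17 and 1.69 (1.08 to 2.54) for Sox18. In the 107 cells of P2 it was 1.29 (0.981 to 1.67), 1.83 (1.58 to 2.11) and 1.74 (1.38 to 2.17), with intervals of the 3 genes that overlapped at each stage. Their median depth was 4493 against 4419 UMIs at P2. None of the ETS factors stood above 1 with an interval clear of it at either stage, Ets1 being at 0.578 (0.274 to 1.08) and 1.12 (0.957 to 1.30). In 70 adult cells the SoxF intervals all held equal levels, and Fli1 was the lower, at 0.444 (0.242 to 0.747) from 14 UMIs.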
